A study of Drosophila melanogaster with 2 samples.

Results

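The genes described here encode the initiation, elongation and release factors of cytoplasmic translation, taken as every protein-coding gene whose symbol begins with eIF, eEF or eRF. They number 54 of 13968 protein-coding genes on the chromosome arms of Drosophila melanogaster: 44 initiation, 8 elongation and 2 release factor genes. Each was described by the toy-eGFP ChIP-seq peaks whose summit had its nearest protein-coding transcription start site (TSS) in that gene. The only group, toy-eGFP ChIP, holds 2 biological replicates of whole embryos aged 0 to 24 h, of the strain toy-GFP. These flies are transgenic, carry an insertion that targets toy and express the toy protein fused to eGFP, which was precipitated with an anti-GFP antibody after sonication. The labels do not name the promoter that drives the fusion, and no condition, mutant or untagged strain is compared. The source was whole embryos with cell types and stages mixed, and the labels do not say which cells express the fusion. Strong binding in few cells and weak binding in many therefore cannot be told apart.

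Translation factors carry the ribosome through its cycle. Initiation factors bring initiator tRNA, the mRNA cap and the ribosomal subunits together, elongation factors deliver aminoacyl-tRNA and move the ribosome along the mRNA, and release factors free the finished protein at a stop codon. Many of their genes, though not every paralog, are needed in almost every cell. In flies the promoters of ribosomal protein genes and of some translation factor genes carry a pyrimidine-rich initiator called TCT. The precipitated protein, twin of eyeless, belongs to the Pax6 group of transcription factors, which bind DNA through a paired domain and a homeodomain, and is best known for acting upstream of eyeless in eye development.

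The sequences under 5 of the peaks are shown because the results turn on where the peaks lie and on which short elements they hold. They are printed 5′ to 3′ on the strand of the gene, from the RefSeq Release 6 assembly (dm6). Capitals mark the DNA replication-related element (DRE, TATCGATA, bound by the factor DREF) in eEF1gamma, eIF3a and eIF2A, the E-box CACGTG in eEF2 and the homeodomain core TAATTA in eIF4EHP. For eEF1gamma the stretch ends 1 bp before the TSS (chr3R:29220063-29220171, plus strand). For eIF3a it is the whole 69 bp gap between its TSS and that of the divergent gene CG1074 (chr3R:4433896-4433964, minus strand). For eIF2A it is the element with its flanks (chr3L:21824865-21824894, plus strand), which end before the summit and leave out further elements described below. For eEF2 it is the bases just upstream of the TSS (chr2L:21682165-21682212, minus strand). For eIF4EHP it is the 121 bp centred on the summit (chr3R:24109151-24109271, minus strand). The eEF2 peak is not in the conservative list described below, and the eIF4EHP peak was assigned to another gene, CG18428. None of the 6 conservative translation factor peaks had an E-box or a TAATTA within 100 bp of its summit, so these 2 sequences are not typical of them.
eEF1gamma promoter: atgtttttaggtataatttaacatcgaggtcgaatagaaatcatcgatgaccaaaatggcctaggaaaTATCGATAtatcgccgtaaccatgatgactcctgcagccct
eIF3a promoter: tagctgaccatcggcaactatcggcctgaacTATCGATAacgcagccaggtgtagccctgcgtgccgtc
eIF2A site: ttactatcgctTATCGATAcaccgcgtaca
eEF2 promoter: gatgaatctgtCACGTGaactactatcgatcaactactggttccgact
eIF4EHP promoter: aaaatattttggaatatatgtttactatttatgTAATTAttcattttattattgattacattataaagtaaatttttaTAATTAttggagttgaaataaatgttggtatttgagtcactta

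A sixth sequence is the peak upstream of eEF1gamma, which is the strongest translation factor peak over 500 bp from any protein-coding TSS. The 121 bp on its summit (chr3R:29214379-29214499, plus strand) hold none of the elements searched and so have no capitals.
eEF1gamma upstream: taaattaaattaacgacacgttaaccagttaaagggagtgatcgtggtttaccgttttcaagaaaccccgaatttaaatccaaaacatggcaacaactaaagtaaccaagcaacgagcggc

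The read depth of the replicates is unknown, and the peak counts given here do not measure it. Replicate 1 had 925 peaks in its thresholded list and 81037 in its ranked list, and replicate 2 had 1098 and 115142. The conservative thresholded list made from both replicates held 1404 peaks (1402 on the arms), and the pooled thresholded list held 1895. Ranked lists hold all candidate peaks down to a signal value of 2.00, and thresholded lists hold those with a low irreproducible discovery rate (IDR), a measure of how badly a peak repeats between peak sets. The signal value is the authors' own, each list has its own scale, and peaks are ranked by it within a list.

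The translation factor genes with a peak in the conservative list were eIF6, eEF1gamma, eEF1alpha1, eIF3a and eIF2A, which is 5 of 54 or 9.26% (Wilson 95% interval 4.02 to 19.9%, counting error only). Over all protein-coding genes the share was 8.05%, which lies inside that interval. All 5 had a conservative peak within 500 bp of their TSS, against 4.76% of all genes, a share that the same interval of 4.02 to 19.9% also covers. In the pooled list eEF2, eIF3h, eEF5 and eIF4E5 joined them, making 9 of 54 or 16.7% (9.02 to 28.7%) beside 10.4% of all genes. The thresholded list of replicate 1 had 6 of the 54 genes, 11.1% (5.19 to 22.2%) beside 5.48%, and that of replicate 2 had 3, 5.56% (1.91 to 15.1%) beside 6.46%. Each of these shares over all genes thus lay within the interval of the translation factors, and no test was made of the differences.

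**Figure D1:**
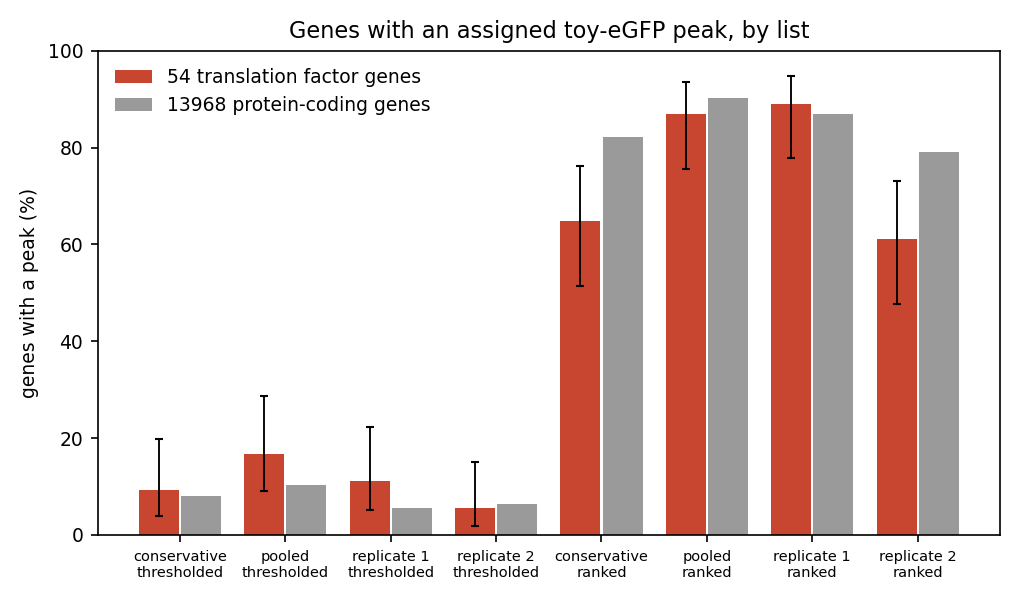
Share of genes (%) with at least 1 assigned peak in each of the 8 lists, for the 54 translation factor genes (red, with Wilson 95% intervals) and for all 13968 protein-coding genes (grey). In the conservative thresholded list the shares are 9.26% and 8.05%, and in the ranked list of replicate 2 they are 61.1% and 79.0%.

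The 6 conservative peaks of the 5 genes were mostly promoter peaks. Of them 5 (83.3%, Wilson 95% interval 43.6 to 97.0%) had their summit within 500 bp of the TSS, compared with 50.3% of all 1402 conservative peaks on the arms. All 5 summits lay upstream of the TSS, at a median of −49 bp, where the promoter peaks of all genes had a median of −122 bp and 85.1% lay upstream. The signal values of the 6 peaks ran from 90.0 to 729 with a median of 162 (interquartile range 109 to 375), compared with a median of 106 (82.3 to 156) over the list. Of the 6 peaks, 4 had a global IDR of at most 0.001, as had 581 of the 1402.

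**Figure D2:**
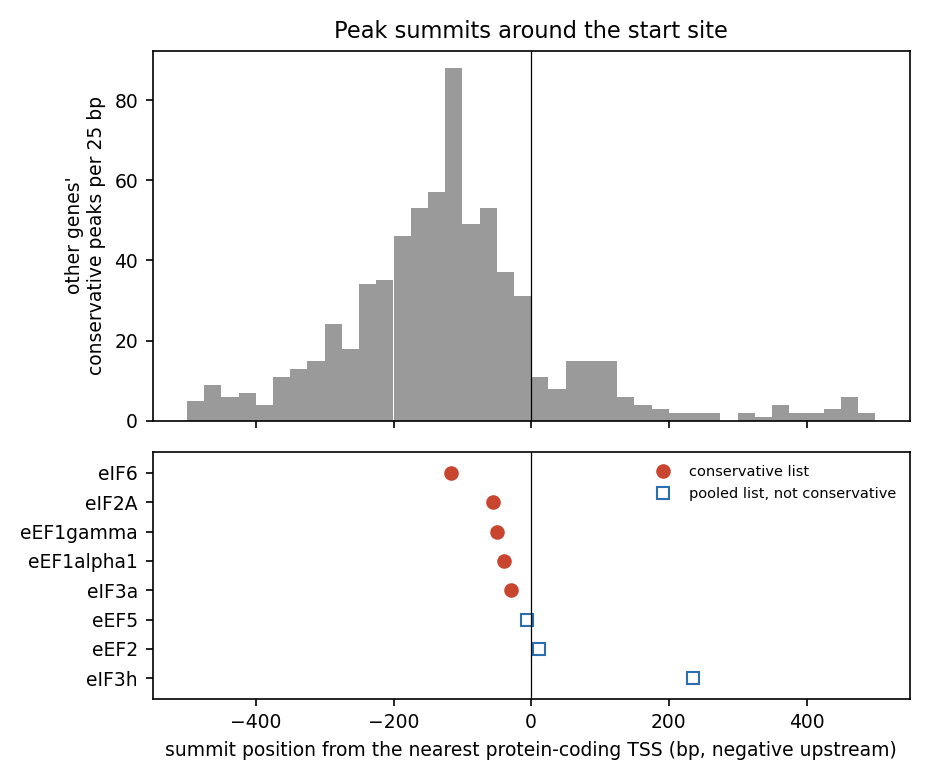
Position of the peak summit (bp) from the nearest protein-coding TSS. The upper panel counts the conservative peaks of other genes in 25 bp bins, and the lower panel shows the translation factor promoter peaks of the conservative list (filled circles) and of the pooled list (open squares). The conservative peaks lie from −117 bp at eIF6 to −30 bp at eIF3a, and the eIF3h peak lies 235 bp downstream.

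Both replicates gave a ranked peak at each of these 6 sites, and their signals were close. Conservative peaks are those that an IDR procedure kept for repeating, so this closeness is a description and no independent check. The log2 ratio of replicate 2 over replicate 1 ran from −0.37 at the eEF1gamma promoter to 0.34 at eIF6, with an SD of 0.27 over the 6 peaks. Over the 1388 conservative peaks with a value in both replicates the SD was 0.46. A thresholded peak of both replicates overlapped 5 of the 6 peaks (83.3%), beside 619 of the 1402 conservative peaks (44.2%), and the exception was eIF2A, which overlapped neither.

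**Figure D3:**
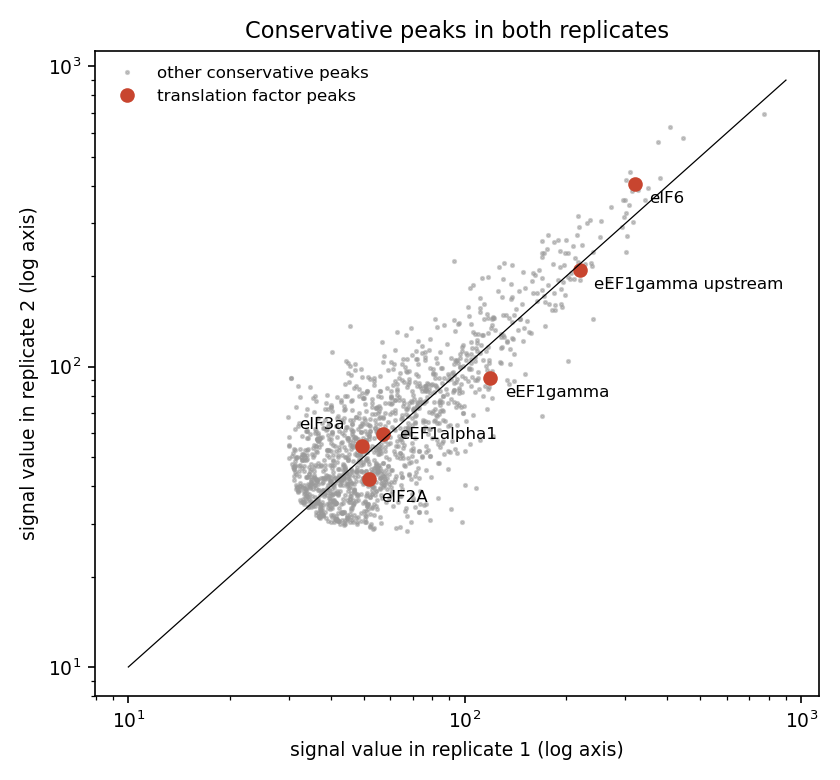
Signal value in replicate 1 (x axis) and replicate 2 (y axis), both log axes, for those conservative peaks that each replicate's ranked list also holds. Translation factor peaks are in red and named, other peaks are grey, and the line marks equal values. The 6 red points lie near the line, from 51.9 and 42.1 at eIF2A to 319.9 and 405 at eIF6.

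Among elongation factors, eEF1gamma carried 2 conservative peaks. eEF1gamma (FBgn0029176, 3R:29220172-29222109, plus strand) encodes the scaffold subunit of the exchange factor that recharges eEF1alpha with GTP. Its promoter peak (3R:29219953-29220292) had a signal of 202, rank 208 of 1404 and a global IDR of 7.57e-05, with 119 in replicate 1 and 91.8 in replicate 2. The summit lay 49 bp upstream of the TSS, in the intergenic DNA printed above, and the DRE began 8 bp downstream of the summit. The replicate summits were at −49 and −35 bp.

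The upstream eEF1gamma peak (3R:29214314-29214551) was the stronger of the pair. It had a signal of 432, rank 44 and a global IDR of 1.00e-05, the lowest value the files give, with 219 in replicate 1 and 210.2 in replicate 2. Its summit lay 5733 bp upstream of the eEF1gamma TSS in intergenic DNA and 123 bp upstream of the TSS of the non-coding gene lncRNA:CR31044. It was assigned to eEF1gamma because only protein-coding genes were considered.

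eEF1alpha1 (FBgn0284245, 2R:11891135-11895762, plus strand) encodes the GTPase that brings aminoacyl-tRNA to the ribosome and is among the most abundant proteins of most cells. Its peak (2R:11891912-11892251) had a signal of 122, rank 547 and a global IDR of 0.000906. The replicates gave 57.0 and 59.5, with summits 15 and 6 bp upstream of the TSS, and the conservative summit was 40 bp upstream. The summit lies in an intron of longer eEF1alpha1 transcripts, just before the start of shorter ones. Its paralog eEF1alpha2 (FBgn0000557) had no thresholded peak, and its strongest peak in the conservative ranked list had a signal of 34.8 and an IDR of 0.310, 586 bp upstream of the TSS. At the eEF1alpha2 promoter the replicates gave 13.8 and 5.97. These promoter values of the paralogs did not overlap, at 57.0 and 59.5 against 13.8 and 5.97. The strongest eEF1alpha2 peaks lay farther than 500 bp from its TSS, with 23.4 in replicate 1 and 17.3 in replicate 2. As eEF1alpha1 had a thresholded peak and eEF1alpha2 had none, lower values at eEF1alpha2 were already given by the peak calls. The gap is thus a description of a single pair of genes, and no test was made.

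The translocation factor eEF2 and the factor eEF5 had peaks in the pooled list but not in the conservative list. eEF2 (FBgn0000559, 2L:21677913-21682164, minus strand), the GTPase that moves the ribosome by a codon, had a pooled peak (2L:21681982-21682321) with a signal of 88.8, rank 993 of 1895 and an IDR of 0.00165. Its summit lay 12 bp downstream of the TSS in the 5′ UTR. Replicate 1 gave 51.5 at that position with an IDR of 0.00991, and replicate 2 had no ranked peak there, its nearest summit being 4459 bp away. eEF5 (FBgn0285952, 2R:24057798-24059483, plus strand), the hypusine-carrying factor that helps stalled ribosomes form peptide bonds, had a pooled peak with a signal of 72.0, rank 1426 and an IDR of 0.00298. Its summit lay 6 bp upstream of the nearest TSS, replicate 1 gave 30.6 with an IDR of 0.303, and the nearest replicate 2 summit was 4310 bp away.

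The other elongation factors had no thresholded peak. eEF1beta, the catalytic exchange subunit, had a strongest conservative ranked signal of 34.9 with an IDR of 0.531. eEF1delta, a related exchange subunit, had 1 ranked peak with a signal of 27.0 in replicate 1, and the nearest replicate 2 summit was 32502 bp from its TSS. eEFSec, the factor for selenocysteine, had no assigned peak in any ranked list, with nearest summits 712 and 555 bp away in replicates 1 and 2 that belong to other genes.

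The strongest translation factor peak in the data was that of the initiation factor gene eIF6. eIF6 (FBgn0034915, 2R:23849246-23850301, minus strand) binds the large ribosomal subunit, keeps it from joining the small subunit too early and takes part in its assembly. Its peak (2R:23850290-23850539) had a signal of 729, rank 8 of 1404 and an IDR of 1.00e-05, with 319.9 in replicate 1 (rank 9 of its thresholded list) and 405 in replicate 2 (rank 8). The summit lay 117 bp upstream of the TSS, and those of the replicates 99 and 109 bp upstream. The same base falls in an exon of the non-coding antisense gene asRNA:CR45928, 88 bp inside its start, and within the gene ytr, so the peak cannot be given to eIF6 alone.

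The initiation complex eIF3, which holds the small subunit ready for mRNA, has 16 genes in the set. Of these 1 had a conservative peak, beside 8.05% of all genes. eIF3a (FBgn0037249, 3R:4429798-4433895, minus strand) encodes its largest scaffold subunit. The peak (3R:4433755-4434094) had a signal of 104, rank 720 and an IDR of 0.00150, and the replicates gave 49.4 and 54.4. The conservative summit lay 30 bp upstream of eIF3a and 40 bp upstream of CG1074. The replicate 1 summit was 33 bp from eIF3a, whereas the replicate 2 summit lay 53 bp upstream of eIF3a and was assigned to CG1074, so eIF3a is missing from the replicate 2 count although a thresholded peak covers its promoter.

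eIF3h (FBgn0022023, 2L:5051193-5053094, minus strand), another subunit of that complex, had a pooled peak (2L:5052375-5052714) with a signal of 79.1, rank 1222 and an IDR of 0.00227. Its summit lay in an intron 235 bp downstream of the TSS and 298 bp upstream of that of senju. Replicate 1 gave 54.7 and passed its threshold, and replicate 2 gave 27.5 with an IDR of 0.0583 and did not. The other 14 eIF3 genes had no thresholded peak. Among them eIF3g2 and eIF3e had the highest conservative ranked signals, 54.7 and 47.2, with IDR values of 0.0978 and 0.793. These summits lay 13726 bp downstream of the TSS and at −2134 bp, and eIF3g1 had no assigned peak in any ranked list. eIF3c came nearest to a promoter call, with a pooled ranked signal of 51.8 and an IDR of 0.0122 at 29 bp upstream. Replicate 1 gave 27.3 there and replicate 2 had its nearest summit 5202 bp away.

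eIF2A (FBgn0037135, 3L:21824740-21827856, plus strand) encodes a factor able to bring initiator tRNA to the ribosome apart from the main eIF2 pathway. Its conservative peak (3L:21824740-21825079) had the lowest signal of the 6, 90.0, with rank 918 and an IDR of 0.00230. Replicate 1 gave 51.9 with an IDR of 0.0105 and replicate 2 gave 42.1 with an IDR of 0.0284, so neither passed alone. The summit lay 55 bp upstream of the nearest TSS, in the 5′ UTR of a longer transcript. Replicate summits were less close here, at −41 and −112 bp.

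The cap-binding family eIF4E has 7 genes, and none had a conservative peak, beside 8.05% of all genes, a share at which so few genes may well hold none. eIF4E5 (FBgn0035823) had a pooled peak (3L:7882139-7882478) with a signal of 64.9, rank 1638 and an IDR of 0.00913, but the summit lay 12571 bp upstream, in an intron of CG32365. The replicates gave 43.0 and 29.5, with IDR values of 0.0404 and 0.803. eIF4E1, the main cap-binding protein, had 24.0 in replicate 1 at 96 bp from its TSS, and the nearest replicate 2 summit was 8447 bp away.

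None of the genes of eIF2, which carries initiator tRNA, had a thresholded peak (0 of 3), nor did those of its exchange factor eIF2B (0 of 5) or those of eIF4A, eIF4B, eIF4G and eIF4H (0 of 6), which unwind and bridge the mRNA. Depending on the thresholded list, 5.48 to 10.4% of all genes had a peak, so a count of 0 in groups this small says nothing about these complexes. The highest conservative ranked signals among all members without a thresholded peak were 56.2 at eIF2beta, 54.7 at eIF3g2, 47.2 at eIF3e, 46.0 at eIF4H2 and 44.6 at eIF5B, the GTPase that joins the subunits. In the same order the IDR values of these peaks were 0.0342, 0.0978, 0.793, 0.282 and 0.781. The nearest of these summits to its TSS was that of eIF2beta, at −1138 bp, and the farthest that of eIF3g2, 13726 bp downstream. The helicase gene eIF4A had 42.3 at 234 bp upstream with an IDR of 0.607. The scaffold genes eIF4G1 and eIF4G2 had no assigned peak in any ranked list. For eIF4G2 the nearest summits, assigned to other genes, were 69 bp away in replicate 1 and 629 bp away in replicate 2. The strongest replicate 1 peak within 500 bp of an eIF4G2 TSS had a signal of 14.1. eIF4G1 is the only member on chromosome 4, and the nearest summits were 7987 bp away in replicate 1 and 93330 bp away in replicate 2.

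Neither release factor gene had a thresholded peak, beside 5.48 to 10.4% of all genes depending on the list. eRF1, which reads the stop codon, had a pooled ranked signal of 30.2 at 138 bp upstream with an IDR of 0.452. Replicate 1 gave 17.5 near its promoter, and the nearest replicate 2 summit was 10015 bp away. eRF3, the GTPase that works with eRF1, had 43.6 in the conservative ranked list at 359 bp downstream, with an IDR of 0.297.

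**Figure D4:**
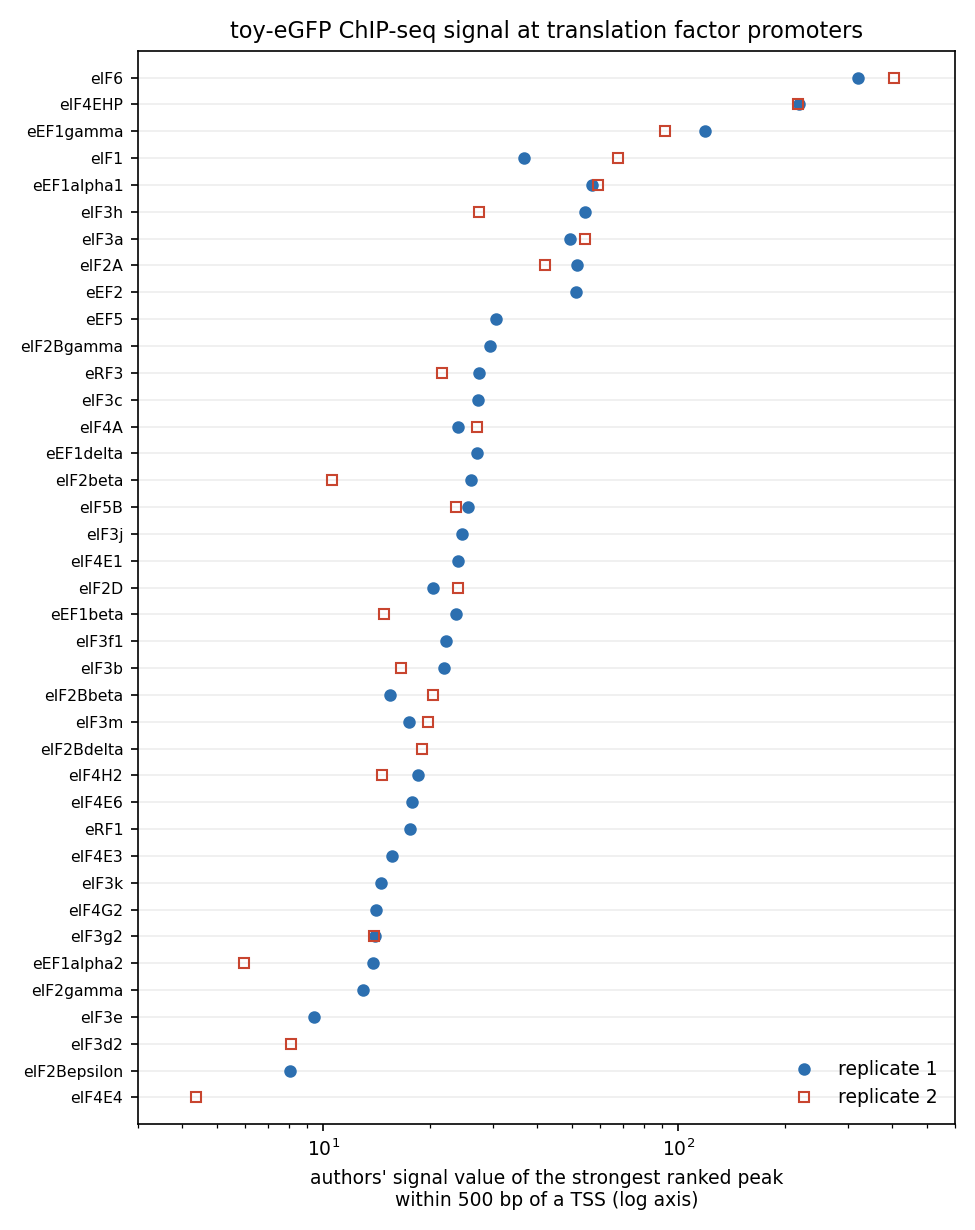
Signal value (log axis) of the strongest ranked peak with its summit within 500 bp of a TSS, for each translation factor gene that has such a peak, in replicate 1 (filled circles) and replicate 2 (open squares). eIF6, eIF4EHP and eEF1gamma have the highest values, most genes lie below 30, and 16 genes have a value in replicate 1 alone.

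The nearest-TSS rule hid some strong peaks close to translation factor genes. The strongest lay at the divergent pair of eIF2Bbeta, a subunit of the eIF2 exchange factor, and Ugalt, a sugar-nucleotide transporter gene (X:2703732-2704043). It had a signal of 1020.3 and rank 3 in the conservative list, with 446 and 579 in the replicates. Its summit lay at −31 bp from Ugalt and −688 bp from eIF2Bbeta. eIF1, a factor of start codon choice, had at −327 bp the summit of a peak assigned to the ribosomal protein gene RpL28 (3L:3222844-3223183, signal 107, rank 689, IDR 0.00304). The replicates gave 36.7 and 67.4 there.

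eIF4EHP, a cap-binding protein that represses bound mRNAs in the embryo, shares a divergent promoter with CG18428. The ranked peak between them (3R:24109063-24109320) had a signal of 441, an IDR of 1.00e-05 and rank 45 of the conservative ranked list, and the replicates gave 219 and 217. Its summit lay at −125 bp from CG18428 and −251 bp from eIF4EHP, whose TSSs are 376 bp apart. The printed stretch holds 2 copies of TAATTA and has a GC content of 16.5%. This peak is in the thresholded list of replicate 1 at rank 36 but in none of the other thresholded lists, despite its low IDR. It is among 47 of 1449 conservative ranked peaks with an IDR of at most 0.01 that the thresholded list lacks, and the reason was not tested.

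The ranked lists, which hold the weak candidate peaks too, differed between the replicates. In the conservative ranked list 35 of the 54 genes had a peak, 64.8% (Wilson 95% interval 51.5 to 76.2%) beside 82.1% of all genes, and in the pooled ranked list 47 had, 87.0% (75.6 to 93.6%) beside 90.2%. The ranked list of replicate 1 had 48 of them, 88.9% (77.8 to 94.8%) beside 87.0%, and that of replicate 2 had 33, 61.1% (47.8 to 73.0%) beside 79.0%. The share over all genes lay above the interval of the translation factors in the conservative list and in replicate 2. Thus 15 of the 54 genes (27.8%) had a ranked peak in replicate 1 alone and 0 in replicate 2 alone, compared with 14.0% and 6.03% of all genes. The 15 were eEF1delta, eEF2, eEF5, eIF1, eIF2alpha, eIF2gamma, eIF3c, eIF3f2, eIF3i, eIF3j, eIF3l, eIF4E1, eIF4E6, eIF5 and eRF1. Replicate 2 held more ranked peaks in all, 115142 against 81037, which does not give the depth of either replicate.

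The distance to the nearest ranked summit, whichever gene it was assigned to, showed the same split. In replicate 2 it exceeded 4000 bp for 15 of the 54 genes (27.8%), compared with 1676 of the 13968 genes, and in replicate 1 for 2 (3.70%), compared with 549 (3.93%). Its median was 286 bp in replicate 1 and 580.0 bp in replicate 2 for the translation factors, and 305 and 315 bp for all genes. A ranked summit within 500 bp of a TSS was present in both replicates for 20 genes (37.0%), in replicate 1 alone for 16 (29.6%), in replicate 2 alone for 3 (5.56%) and in neither for 15 (27.8%). The shares over all genes were 44.5%, 19.1%, 17.6% and 18.8%. Promoter signals ran from 8.03 to 319.9 with a median of 23.9 in replicate 1 (36 genes) and from 4.37 to 405 with a median of 21.6 in replicate 2 (23 genes). The part of read depth or of the peak calling in this difference was not tested.

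The short elements searched on both strands were the DRE, the E-box and the homeodomain core spelled out above, GGTCACAC as the core of the core-promoter element Motif 1, a repeat bound by the Trithorax-like protein (GAGAGAG), the paired-class homeodomain dimer and the Pax6 paired domain consensus with up to 2 mismatches. A DRE was within 100 bp of the summit at 3 of the 6 conservative peaks (eEF1gamma promoter, eIF3a, eIF2A), compared with 2.21% of all conservative windows. In eIF3a it ends 1 bp before the summit, and in eIF2A it lies 27 to 34 bp upstream. The Motif 1 core was present at eEF1alpha1 and eIF2A, 2 of 6, compared with 1.43%. At eIF2A it spans the summit. The paired domain consensus matched at eIF2A alone, 1 of 6, compared with 10.6% of all windows, and the 4 other elements matched at 0 of 6, compared with 1.93% for the E-box, 4.07% for the Trithorax-like repeat, 15.8% for the homeodomain core and 2.92% for the dimer. Within 200 bp of the summit the E-box matched at 2 of 6 peaks (eIF6 and eIF2A), compared with 5.78% of all windows, and the homeodomain core at 2 of 6 (eEF1alpha1 and eIF3a), compared with 24.6%. The GC content of the 6 windows had a median of 45.5%, compared with 35.8% over all conservative windows. Promoter peaks made up 83.3% of the translation factor peaks but 50.3% of all conservative peaks. Each comparison here therefore sets mostly promoter windows against a mixed set, and cannot tell the peaks apart from the promoters they lie in. A match is a description of letters, not of a bound site.

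In the promoters, taken from 250 bp before to 50 bp after the 5′ end of each gene, 15 of the 54 genes (27.8%) held a DRE, compared with 30.4% of the 92 ribosomal protein genes and 9.36% of all genes. Of these 15 genes, 3 (eEF1gamma, eIF3a and eIF6) had a thresholded peak, beside 9 of all 54. With so few genes these counts say nothing about promoters with a DRE. The DRE under the eIF2A peak is not counted here, because it lies more than 50 bp after the 5′ end of that gene. The homeodomain core was present in 15 promoters (27.8%), compared with 20.4% of all, and the paired domain consensus in 8 (14.8%), compared with 15.0%. The TCT initiator (TCTTTT, where the outer bases may also be C, on the sense strand within 10 bp of a TSS) was present in 7 genes: eEF1delta, eEF2, eEF5, eIF3f1, eIF3i, eIF3m and eIF4A. That is 13.0%, compared with 68.5% of ribosomal protein genes and 3.03% of all genes. None of the 7 had a conservative peak, beside 8.05% of all genes, though eEF2 and eEF5 had a pooled one, beside 10.4%. With 7 genes these counts say nothing about promoters with a TCT initiator.

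**Figure D5:**
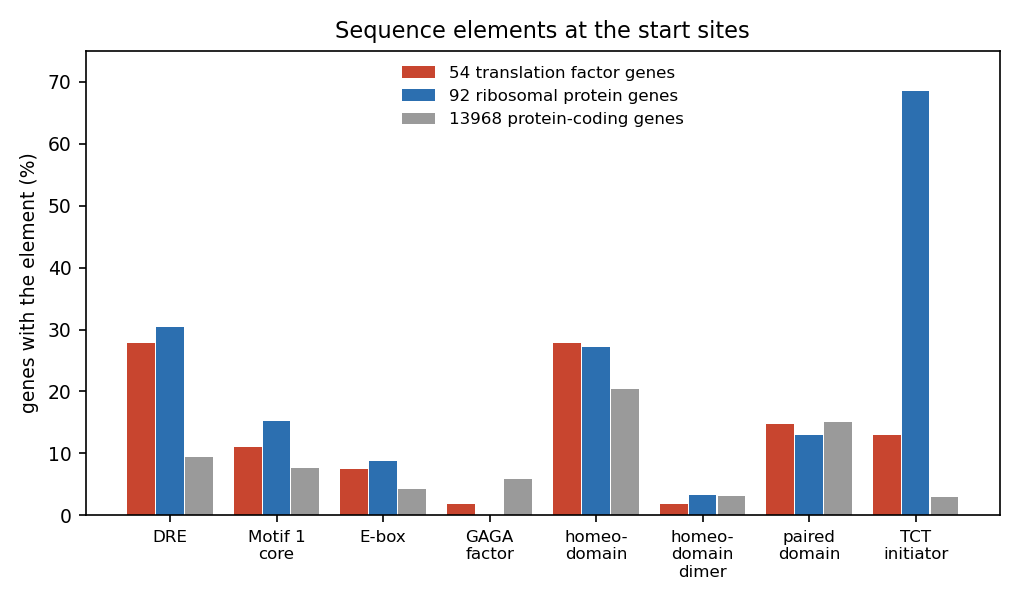
Share of genes (%) with each sequence element, for translation factor genes (red), ribosomal protein genes (blue) and all protein-coding genes (grey). A DRE is held by 27.8%, 30.4% and 9.36%, and a TCT initiator by 13.0%, 68.5% and 3.03%.

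Other genes of translation were counted in the same way. Of the 92 cytoplasmic ribosomal protein genes 31 had a conservative peak, 33.7% (Wilson 95% interval 24.9 to 43.8%), which lies above the 8.05% of all genes, and all 33 of their peaks were at promoters, with a median signal of 107. The strongest were RpS27 with 295, RpL41 with 200.3 and RpL32 with 188. In the conservative list the interval of the ribosomal proteins, 24.9 to 43.8%, does not overlap that of the translation factors, 4.02 to 19.9%. This separation was not seen in the list of replicate 1. There 18 ribosomal protein genes (19.6%, beside 5.48% of all genes) had a peak, a share inside the translation factor interval of 5.19 to 22.2%. In that of replicate 2, 25 ribosomal protein genes (27.2%, beside 6.46% of all genes) had a peak, above the translation factor interval of 1.91 to 15.1%. In the pooled list 43 had a peak (46.7%, beside 10.4% of all genes), above the translation factor interval of 9.02 to 28.7%. Of 35 aminoacyl-tRNA synthetase genes, whose products charge tRNAs, 3 had a conservative peak (8.57%, 2.96 to 22.4%, beside 8.05% of all genes): GluProRS with 196, IleRS with 123 and ThrRS with 72.5. Of 9 mitochondrial translation factor genes 0 had a peak in any thresholded list, beside 5.48 to 10.4% of all genes depending on the list.

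Among 21 regulators of translation and mRNA, 5 had a conservative peak (23.8%, 10.6 to 45.1%), beside 8.05% of all genes. These shares count peaks at any distance, and only 3 of the 6 regulator peaks were promoter peaks. The strongest were Ns2 and Ns1, nucleostemin-like GTPases, with 129 and 116, and Thor, the inhibitory partner of eIF4E1, with 106. The Ns1 peak was no promoter peak and lay 7515 bp downstream of the TSS, and that of PEK, another of the 5 genes, lay 10292 bp downstream. The Thor peak lay 35 bp upstream of its TSS, and the replicates gave 78.9 and 30.8. Of the 21 genes, 3 (14.3%) had a thresholded peak in replicate 1, beside 5.48% of all genes, and 1 (4.76%) in replicate 2, beside 6.46%, so in replicate 2 the share was not above that of all genes.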

How the data were processed

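ChIP-seq of toy-eGFP was analysed from 8 peak lists of 2 replicates. Per the labels, the build is dm6 and fragments were 200 to 800 bp. Aligner, peak caller and scaling: not given in the sources used here. A control was not analysed here. The deposited signal value of each peak was used as given by the authors, within its own list. The authors' −log10 of the global IDR, as deposited, goes no higher than 5. The IDR of a thresholded peak was read from the same peak in the matching ranked list. For the conservative thresholded list these values reached 0.00998. The thresholded lists have a further input of unstated content. The series' 2 ranked lists have 8 columns each that name no replicate, and these were left aside.

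A peak was given to the gene with the protein-coding TSS (any annotated transcript, Ensembl release 115) nearest to its summit, on 7 arms. No tie occurred among the thresholded peaks of the translation factors (0). Peaks within 500 bp of a TSS were called promoter peaks, and lists were overlapped by any shared base. Windows of 201 bp were centred on summits. Intervals are Wilson 95% and cover counting error only. With 1 group there is no contrast, so no test was run. Symbols Tor and mEFG2 did not match. The named genes are those with a thresholded peak, up to 5 without one that rank highest in the conservative ranked list, those with no ranked peak, and the 3 strongest of each other list; further genes (eIF2Bbeta, eIF4EHP, eIF1, eIF3c, eIF4A, eIF4E1, the remaining elongation factors and the release factors) were named after their values were seen. Members and lists were chosen with earlier results of these data known. Code (Python 3.11.15, pandas 2.3.3, scipy 1.17.1) was tested on simulated data.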

Additional observations from a re-analysis of the deposited data

How the results depend on the processing

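The 5 translation factor genes with a conservative peak became 9 in the pooled list and 3 at an IDR of at most 0.001 (3.67% of all genes). With 1 replicate's list they were 3 to 6. The 5 promoter peaks became 8 in the pooled list and 3 at that IDR, and 3 to 6 with 1 replicate. The median signal of 162 became 317 at that IDR and ran from 57.0 to 151 with 1 replicate, whose lists have their own scale. The gene count was 5 with summits within 5 kb (7.14% of all genes) or 500 bp (4.76%), with 1 TSS per gene (8.25%) and without the eIF4E family, and 6 with any TSS within 500 bp (6.61%). In alternatives chosen after seeing the data, ranked peaks with an IDR of at most 0.01 gave 5 genes (8.22% of all genes), or 7 with any TSS within 500 bp (6.74%), which adds eIF4EHP and eIF1. The 31 ribosomal protein genes became 18 without replicate 2, and the 5 regulators 1 and 3 without replicates 1 and 2. The 5 peaks that overlapped both replicates stayed 5 when 50% had to be shared. The cause of these differences was not tested. Depth is unknown, and a gene without a peak may be bound below what these lists show. No paired analysis was possible because there is 1 group.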
